A study of Mus musculus with 3 samples.

Results

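Methylated regions of epididymal fat that lie near the distal ends of the mouse autosomes, the ends away from the centromere, were described. Peaks of 3 libraries were pooled and merged where they shared 1 bp, and a merged region was kept when it started within 5 Mb of the highest peak end of its chromosome. This gave 7222 of 154503 merged autosomal regions, in windows that add up to 95 Mb over 19 autosomes. The ND library had 4494 of its 96063 autosomal peaks in these regions, the HFD library 6074 of 130093 and the FAD library 4218 of 90352. The outer limit of a window is a peak, not the assembled end of the chromosome. It lay between 54 and 109659 bp from the end of the last gene record of RefSeq, and beyond it on 11 of 19 chromosomes, so the windows do sit at the distal ends of the annotated sequence.

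The libraries came from methylated DNA immunoprecipitation and sequencing (MeDIP-seq), in which an antibody against methylated cytosine enriches fragments, and enriched stretches are called as peaks. All mice were male C57BL/6J animals, 6 weeks old at the start and 16 weeks old at the end of 10 weeks on their diet. The ND group ate a normal diet with about 10% of its energy from fat and the HFD group a high-fat diet with about 60%. The FAD group ate the high-fat diet too, and its drinking water held 20 μg/mL folic acid. There was 1 library per diet, so no difference between diets below has a replicate check, no test was made, and 95% intervals cover counting error over peaks or regions only. The number of animals behind each library is not stated in the labels. Whole epididymal fat holds adipocytes, vessel cells and immune cells, and a methylated region cannot be assigned to any of them here. Read depth is unknown from these lists, and the score is that of the authors' peak caller. It was compared within a list only, except where regions were sorted by their highest score over the 3 lists.

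Mouse chromosomes carry the centromere at one tip, so each has a single long arm whose far tip is capped by telomere repeats. The DNA just inside the telomere, the subtelomere, is known to be densely methylated in mouse cells by DNA methyltransferases, and this methylation has been linked with the control of telomere length and recombination. In most of the genome CpG sites are methylated except in CpG islands at gene starts, where methylation usually goes with silencing, as at germline genes in body tissue and at control regions of imprinted genes. The MeDIP antibody recovers fragments with several methylated CpGs, so CpG-poor stretches give weak signal even when methylated.

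Promoters in the distal windows show which sequences lay under these peaks. Of 6 RefSeq promoters shown here (build GRCm38.p6, 5′ to 3′ on the gene's strand, 250 bases before to 50 after the start, CpG sites in capitals), the top 5 were under a peak in all 3 libraries and Pnpla2 was under none. They were chosen after the values were seen, to show a CpG-dense promoter, a germline gene, a keratin gene, an imprinted RNA and a pair of genes active in fat.
Tmem267, chr13:119488223-119488522, + strand: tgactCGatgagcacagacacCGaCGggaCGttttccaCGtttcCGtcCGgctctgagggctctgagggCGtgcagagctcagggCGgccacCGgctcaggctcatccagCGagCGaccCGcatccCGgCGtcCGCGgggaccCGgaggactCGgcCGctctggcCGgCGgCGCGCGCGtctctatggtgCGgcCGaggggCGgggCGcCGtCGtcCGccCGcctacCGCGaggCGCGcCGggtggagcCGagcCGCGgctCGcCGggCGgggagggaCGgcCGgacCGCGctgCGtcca
Sycp2, chr2:178407609-178407908, - strand: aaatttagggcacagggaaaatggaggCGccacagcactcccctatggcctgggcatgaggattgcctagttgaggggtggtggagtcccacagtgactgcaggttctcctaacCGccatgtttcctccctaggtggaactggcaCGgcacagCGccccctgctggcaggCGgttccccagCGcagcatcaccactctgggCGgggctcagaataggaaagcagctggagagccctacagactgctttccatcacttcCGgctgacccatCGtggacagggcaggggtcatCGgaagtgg
Krt75, chr15:101573855-101574154, - strand: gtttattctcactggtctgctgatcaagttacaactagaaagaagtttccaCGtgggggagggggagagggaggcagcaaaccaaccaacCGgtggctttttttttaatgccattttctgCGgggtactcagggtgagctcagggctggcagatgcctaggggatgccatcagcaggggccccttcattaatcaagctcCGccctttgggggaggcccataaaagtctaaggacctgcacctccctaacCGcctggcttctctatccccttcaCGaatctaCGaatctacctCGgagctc
Kcnq1ot1, chr7:143296498-143296797, - strand: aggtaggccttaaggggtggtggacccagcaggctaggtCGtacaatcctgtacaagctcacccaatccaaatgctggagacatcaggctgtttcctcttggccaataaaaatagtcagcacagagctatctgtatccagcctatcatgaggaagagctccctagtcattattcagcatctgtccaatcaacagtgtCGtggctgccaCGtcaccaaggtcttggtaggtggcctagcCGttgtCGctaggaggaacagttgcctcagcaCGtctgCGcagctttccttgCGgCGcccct
Igfbp6, chr15:102143936-102144235, + strand: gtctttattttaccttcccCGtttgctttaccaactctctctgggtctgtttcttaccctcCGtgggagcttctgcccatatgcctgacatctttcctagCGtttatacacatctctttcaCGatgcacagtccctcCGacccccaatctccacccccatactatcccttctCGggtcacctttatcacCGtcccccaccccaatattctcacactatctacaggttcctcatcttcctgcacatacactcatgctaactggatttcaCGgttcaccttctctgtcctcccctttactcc
Pnpla2, chr7:141454938-141455237, + strand: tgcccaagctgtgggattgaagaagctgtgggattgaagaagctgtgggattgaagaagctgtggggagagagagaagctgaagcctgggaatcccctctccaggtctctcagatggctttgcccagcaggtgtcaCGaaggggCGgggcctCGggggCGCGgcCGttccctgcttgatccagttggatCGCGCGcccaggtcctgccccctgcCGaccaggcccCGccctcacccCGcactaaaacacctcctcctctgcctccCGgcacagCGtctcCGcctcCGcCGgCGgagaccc
Tmem267, which encodes a membrane protein, held 50 CpGs in 300 bases, and the promoter shown lay under peaks with scores of 731 in ND, 773 in HFD and 493 in FAD. Another RefSeq promoter of Tmem267, with 22 CpGs, lay under a peak in HFD and FAD and not in ND. Sycp2, a synaptonemal complex gene of meiosis, held 10 CpGs and scored 310.1 in ND, 492 in HFD and 230.4 in FAD. Krt75, a keratin gene of the hair follicle, held 8 CpGs and scored 376, 411 and 378 in ND, HFD and FAD. These scores stood well above the median of their lists. Kcnq1ot1, the non-coding RNA that silences its imprinted neighbours in cis, held 9 CpGs and scored 308, 473 and 170.3 in ND, HFD and FAD. Its ND and FAD peaks ended inside the printed bases, at 143296617 and 143296666. Igfbp6, which encodes a binding protein of insulin-like growth factors, held 8 CpGs and scored 113, 269 and 85.1. Pnpla2, the gene of adipose triglyceride lipase, the first enzyme of fat breakdown, held 18 CpGs and had no promoter peak in any library.

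Peaks were denser in the distal windows than in the rest of the same chromosomes, by a similar factor in the 3 libraries. The ND library had 47.3 peaks per Mb in the windows and 39.7 in the rest, a ratio of 1.19 (1.16 to 1.23). The HFD library had 63.9 and 53.7, a ratio of 1.19 (1.16 to 1.22), and the FAD library 44.4 and 37.3, a ratio of 1.19 (1.15 to 1.23). The windows made up 3.95% of the length and held 4.68% of ND, 4.67% of HFD and 4.67% of FAD peaks. The ratio did not separate the diets: all 3 intervals overlap over nearly their whole span.

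The average hides wide differences between chromosomes. Merged regions were denser in the distal window than in the rest on 14 of 19 chromosomes, and the ratio ran from 0.434 on chromosome 17 to 1.95 on chromosome 4. Chromosome 4 had 79.8, 108.6 and 73.6 peaks per Mb in its window in ND, HFD and FAD, against 41.3, 54.5 and 38.8 in its rest. Chromosomes 5, 15 and 11 followed with ratios of 1.65, 1.65 and 1.54 for merged regions. Chromosome 17 had 22.2, 27.2 and 22.0 peaks per Mb in ND, HFD and FAD, against 49.8, 66.2 and 46.9 in its rest. Chromosomes 18, 3, 13 and 12 also had fewer regions near the distal end, with ratios of 0.472, 0.543, 0.724 and 0.830. The libraries stood on different sides of 1 on 2 chromosomes. The ratio on chromosome 7 was 0.908 in ND, 1.06 in HFD and 0.971 in FAD, and on chromosome 2 it was 1.15, 1.08 and 0.972. Without chromosome 4 the ratios over all chromosomes were 1.15, 1.14 and 1.15 in ND, HFD and FAD, and without chromosome 17 they were 1.24 in each.

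**Figure D1:**
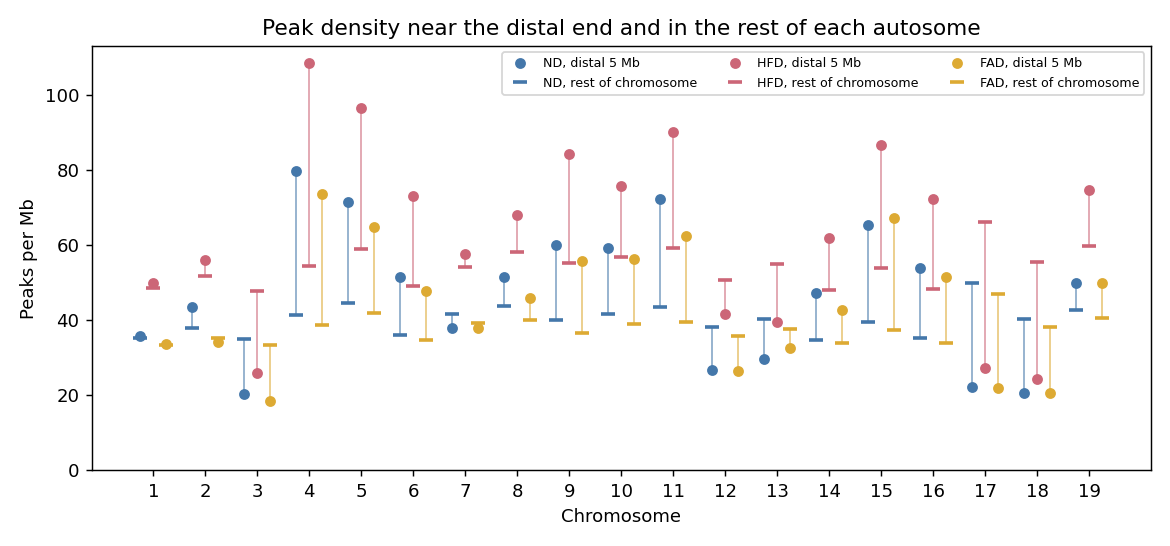
Peaks per Mb (vertical axis) in the distal 5 Mb (circles) and in the rest (bars) of each autosome (horizontal axis) for the 3 libraries, joined by a line. Chromosomes 3, 12, 13, 17 and 18 have their circles below the bars in every library, and chromosome 4 has its circles farthest above.

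Windows with few regions held few coding genes. A total of 1097 protein-coding gene records began in the windows, or 11.5 per Mb against 8.48 in the rest, and 6.58 merged regions per coding gene against 7.53 in the rest. The 5 windows with fewer regions than the rest of their chromosomes held 4 coding genes on chromosome 17, 8 on 18, 13 on 3, 15 on 12 and 26 on 13. The windows on chromosomes 4, 15 and 11, by contrast, held 90, 132 and 108, while that of chromosome 5, with 578 regions, held 40. That of chromosome 14 held 23, with 367 regions. On chromosomes 5, 6, 8, 14 and 19 the window had fewer coding genes per Mb than the rest, yet more regions per Mb. Across 19 chromosomes Spearman's rho between the numbers of regions and of coding genes in the window was 0.740. Between the distal to rest ratios of regions and of coding genes it was 0.675. Both values are a description only, since the windows share their libraries. The window of chromosome 10 held 162 coding genes, of which 58 were olfactory receptor genes, and 448 regions. Regions had their midpoint inside a coding gene record in 52.8% of cases (51.6 to 53.9%), against 48.1% (47.9 to 48.4%) in the rest, where records covered 45.2% and 40.7% of the length. The part of gene number in the density was not tested.

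Within the windows the density fell toward the tip. Merged regions numbered 53.5 per Mb in the outermost 1 Mb, 61.7 in the next, then 80.0, 91.3 and 93.7 between 4 and 5 Mb from the highest peak end. The outermost 1 Mb held fewer regions than the stretch between 4 and 5 Mb on 13 of 19 chromosomes, for example 30 against 107 on chromosome 1 and 37 against 144 on chromosome 9. The reverse held on chromosomes 2, 3, 12, 13, 17 and 18, with 67 against 38 on chromosome 13. Over the outer 20 Mb the density was highest outside the windows, at 108.3 per Mb between 7 and 8 Mb, so that the distal 5 Mb had 76.0 regions per Mb and the next 5 Mb had 99.3. The distal 5 Mb held fewer regions than the next 5 Mb on 15 of 19 chromosomes, chromosomes 4, 5, 10 and 19 being the exceptions. Coding genes did not fall toward the tip in the same way, with 13.6 per Mb in the outermost 1 Mb and 9.26 between 7 and 8 Mb.

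The 5 Mb limit and the comparator therefore set the direction of the ratio. With windows of 2 Mb the ratio was 0.886 in ND, 0.892 in HFD and 0.923 in FAD, with windows of 10 Mb it was 1.42, 1.41 and 1.39, and against the next 5 Mb it was 0.755, 0.763 and 0.775. Regions just inside and just outside the limit were alike. Between 4 and 5 Mb there were 1780 regions with a median top score of 97.6 and a median width of 598 bp, and between 5 and 6 Mb 1760 regions with 95.045 and 586.5 bp. At the centromeric end, the 5 Mb from the first peak held 63.7 regions per Mb and the next 5 Mb 58.0. There the outermost 1 Mb was the densest of the 5, at 69.8 per Mb, and the fifth held 54.9.

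**Figure D2:**
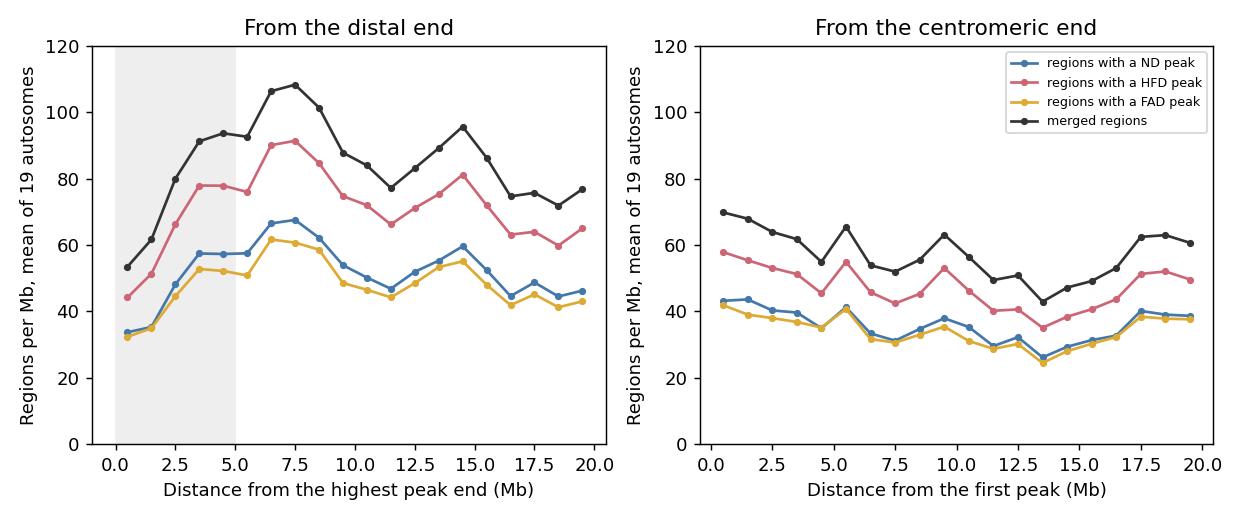
Merged regions, and those with a peak of each library, per Mb (vertical axes, mean over 19 autosomes) in 1 Mb steps from the highest peak end (left, distal 5 Mb shaded) and from the first peak (right). At the distal end the merged density rises from 53.5 to 108.3 per Mb between the tip and 7 to 8 Mb, while at the centromeric end it starts at 69.8.

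Set among consecutive 5 Mb windows counted back from the end of the same chromosome, the distal window ranked above the middle of the list on 14 of 19 chromosomes and first on 0. It ranked second on chromosomes 4, 5, 9, 11, 15 and 19. It was the last of 31, 18 and 17 windows on chromosomes 3, 17 and 18. Merged regions covered 8.32% of the window of chromosome 4 and 2.22% of that of chromosome 3.

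Scores and widths near the distal ends were close to those of the rest. The median score was 97.4 in the ND windows (95.05 to 99.97 by exact binomial ranks) and 100.5 in the ND rest. It was 100.6 (99.2 to 103.2) and 100.2 in HFD, and 94.6 (92.5 to 97.0) and 96.9 in FAD. The distal median was the higher on 8 chromosomes in ND, 12 in HFD and 9 in FAD. Scores of 200 or more made up 17.2% of distal ND peaks against 18.3% in the rest, 19.1% against 19.1% in HFD, and 15.4% against 15.7% in FAD. Median widths were 503 and 504 bp in ND, 596 and 585 bp in HFD, and 441 and 445 bp in FAD for distal peaks and the rest. The distal median score was 0.969, 1.004 and 0.976 times that of the rest in ND, HFD and FAD, and distal HFD peaks were the wider on 15 chromosomes. Peaks of 2000 bp or more numbered 37 (0.823% of distal peaks, 1.05% in the rest) in ND, 69 (1.14% and 1.16%) in HFD and 34 (0.806% and 0.586%) in FAD.

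Sharing between the libraries was also like that of the rest. Of the 7222 distal regions, 2849 (39.4%, 38.3 to 40.6%) held a peak of all 3 libraries, against 40.0% elsewhere, a difference of -0.537 percentage points (-1.69 to 0.623). The HFD library alone marked 1714 (23.7%), the ND library alone 576 (7.98%) and the FAD library alone 438 (6.06%). ND with HFD marked 811 (11.2%), HFD with FAD 662 (9.17%) and ND with FAD 172 (2.38%). The largest of these 7 shares in its departure from the rest was HFD with FAD, at 8.41% elsewhere and a difference of 0.757 points (0.0971 to 1.46). It is 1 of 7 intervals, and no allowance was made for that number.

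Sharing followed the highest score of a region over the 3 lists. A maximum over more peaks is higher by construction, so part of this rise is built in. Among distal regions whose highest score was below 75, 2.43% (1.87 to 3.14%) were in all 3 libraries, and 2.73% elsewhere. Between 100 and 150 it was 49.2% (46.7 to 51.7%) and 48.4%, and between 200 and 400 it was 94.2% (92.6 to 95.6%) and 95.6%. All 340 distal regions with a score of 400 or more were in every library (98.9 to 100%). Distal regions and the rest thus climbed together from class to class.

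**Figure D3:**
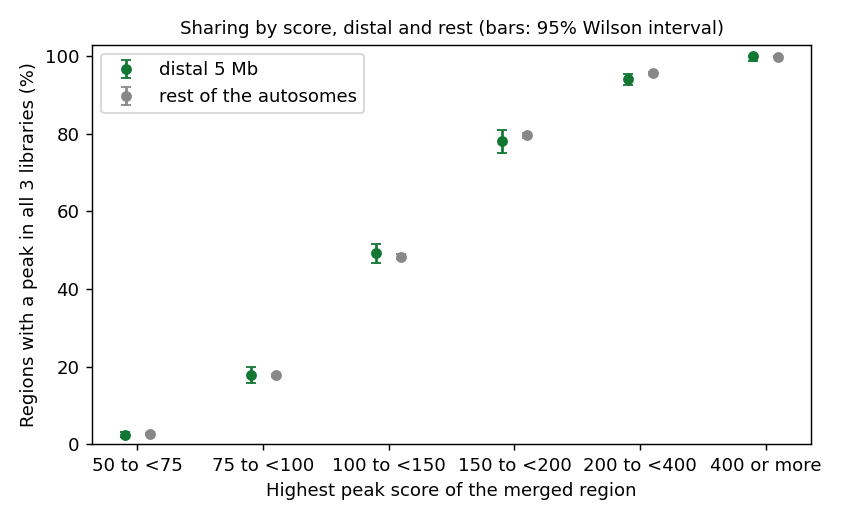
Share of merged regions with a peak in all 3 libraries (vertical axis, percent, with 95% Wilson intervals) by the highest score of the region over the 3 lists (horizontal axis), in the distal windows (green) and the rest (grey). Both rise together, from 2.43% and 2.73% in the lowest class to 100% and 99.9% in the highest.

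For HFD against ND, 2376 distal regions (32.9%, 31.8 to 34.0%) had an HFD peak and no ND peak, and 748 (10.4%, 9.68 to 11.1%) the reverse. Over all autosomal regions these shares were 32.6% and 9.95%. For FAD against HFD, 610 (8.45%) were in FAD and not HFD and 2525 (35.0%) the reverse, where 8.71% and 35.2% held over all regions. For FAD against ND, 1100 (15.2%) were in FAD and not ND and 1387 (19.2%) the reverse, where 14.8% and 18.7% held over all. Set against the rest, the largest of the 6 differences was 0.487 points (-0.427 to 1.43), for ND and not FAD, and all 6 intervals included 0 with the full lists. With the top 50% of peaks 3 of the 6 did not: HFD and not ND at 2.60 points (1.02 to 4.21), HFD and not FAD at 1.65 (0.0508 to 3.28), and FAD and not HFD at -1.02 (-1.86 to -0.0889). These 3 comparisons share their libraries. The lists differ in length, with most peaks in HFD. With the lists cut to equal length by score, the distal shares were 19.3% for HFD and not ND against 18.9% for the reverse, and 18.3% for FAD and not HFD against 18.9%. For FAD and not ND they were 19.8% against 20.06%. Lists of equal length must give near-equal shares in both directions, so this cut cannot show whether the surplus of HFD regions holds. An absent peak is one that did not pass the caller's threshold, and the part of library depth was not tested.

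A stricter count asked for 5000 bp free of the other library's peaks on both sides. There were 1427 in HFD and not ND (19.8%, and 20.5% over all regions) and 270 in ND and not HFD (3.74% and 4.27%). There were 232 in FAD and not HFD (3.21% and 3.89%) and 1576 in HFD and not FAD (21.8% and 23.2%). FAD and not ND gave 591 (8.18% and 8.61%), and ND and not FAD 780 (10.8% and 11.3%). By this count all 6 shares were lower near the distal ends than over all regions. The interval of the difference from the rest left out 0 for 3 of them, ND and not HFD at -0.557 points (-0.984 to -0.0834), FAD and not HFD at -0.714 (-1.11 to -0.271) and HFD and not FAD at -1.42 (-2.38 to -0.428). Peaks were also denser there, and the part of density in these shares was not tested.

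The chromosomes differed in sharing as well. On chromosome 7, 31.7% of distal regions were in all 3 libraries against 41.0% in its rest, and 38.9% were in HFD and not ND against 30.5%. Chromosome 12 was similar, with 32.8% and 39.8% in all 3 libraries and 39.9% and 32.0% in HFD and not ND. On chromosome 13 the share in all 3 libraries was 46.4% against 39.3%. Over the 19 chromosomes the share in all 3 libraries was higher near the distal end on 10, and that of HFD and not ND on 9.

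The strongest distal region of each chromosome, by mean rank over the 3 lists, held a peak of all 3 libraries by this choice. Their scores ran from 433 to 2410 in ND with a median of 794, from 545 to 3100 in HFD with a median of 858, and from 459 to 2266 in FAD with a median of 803. The highest of all lay on chromosome 9, 124256070 to 124258133, 9751 bp from the predicted gene Gm39469, with scores of 2410, 3100 and 2266 in ND, HFD and FAD, and 3100 is also the highest score elsewhere in the HFD list. On chromosome 1 the strongest region (195241469 to 195242019) scored 1173, 1263 and 1162 and lay 64589 bp from Cr2, a complement receptor gene. On chromosome 19 it (61199481 to 61199968) scored 1101, 1212 and 1112 and lay 17223 bp from Csf2ra, the gene of the alpha chain of the GM-CSF receptor. These 3 regions began within 232 kb of the highest peak end of their chromosome.

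Several of the other leading regions lay inside gene records. In Sspn, the sarcospan gene of the dystrophin complex, the region on chromosome 6, 145932487 to 145933383, scored 1033, 1086 and 1092 in ND, HFD and FAD. In Acvr1b, an activin receptor gene, the region on chromosome 15, 101205106 to 101206270, scored 1136, 858 and 803. In Shank2, a scaffold gene of synapses, the scores were 729, 723 and 539, in Fgf14, of the fibroblast growth factor family, 728, 720.0 and 619, and in Negr1, a neuronal adhesion gene, 731, 738 and 459. On chromosome 11 the strongest region lay 49209 bp from Metrnl, which encodes a hormone secreted by fat and muscle, with 665, 797 and 515.

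The widest distal region spanned 8812 bp on chromosome 13, 119595428 to 119604239, in the record of Tmem267. It was 1 peak in each library with scores of only 97.5, 105 and 95.1 in ND, HFD and FAD, close to the list medians. The next spanned 4206 bp on chromosome 3, with scores of 294, 321 and 170, and 3779 bp on chromosome 13, with 196, 184 and 177. A region of 3483 bp in Grk5, the gene of a kinase of G protein-coupled receptors, was found in HFD only with a score of 65.7, while ND and FAD peaks lay 820 and 939 bp away. The fifth, of 3474 bp on chromosome 16 (93702779 to 93706252) in the predicted gene Gm52236, scored 941, 1087 and 1431 and was also the strongest of its chromosome. The widest regions thus ranged from weak to among the strongest.

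Regions missing from a library were mostly weak. Of the 1714 distal regions found in HFD only, 4 had a score of 200 or more, as did 0 of 576 in ND only and 0 of 438 in FAD only. Of all distal peaks, 19.1% in HFD, 17.2% in ND and 15.4% in FAD reached 200. Such regions were not counted in the rest of the autosomes, so no trait of the distal ends is shown. In HFD the highest lay at chromosome 9, 124278916 to 124279350 (score 242), in Gm39469, with the nearest ND and FAD peaks 20782 and 20826 bp away. The highest ND-only region scored 168 (chromosome 2, 177499722 to 177499959, 20528 bp from the zinc finger gene Zfp970). The highest FAD-only region scored 142 (chromosome 6, 146498839 to 146499130) in Itpr2, the gene of an inositol trisphosphate receptor. The 3 leading ND-only regions were narrow, at 238, 264 and 283 bp, where the narrowest decile of distal ND peaks ended at 323 bp.

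Within the HFD list, regions shared by HFD and 1 other library reached higher scores than the highest HFD-only score of 242. Scores of different lists are not ranked against each other here. In HFD and FAD but not ND, a region in Plch2, a phospholipase C gene (chromosome 4, 155055250 to 155056020), scored 349.7 and 172, with the nearest ND peak 6334 bp away. Another in Pard3, a cell polarity gene (chromosome 8, 127203899 to 127204217), scored 347 and 119.5, with the nearest ND peak 7689 bp away. In ND and HFD but not FAD, a region in Sp1, which encodes a transcription factor (chromosome 15, 102429935 to 102430321), scored 75.5 and 259, with the nearest FAD peak 21709 bp away. A region shared by the genes Rer1 and Morn1 on chromosome 4 scored 277 and 94.8, with the nearest FAD peak 5341 bp away. In ND and FAD but not HFD, the highest lay in Pcnx2 on chromosome 8 and scored 92.3 and 202.2, with the nearest HFD peak 4479 bp away.

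Gene lists drawn up for these windows were read by peaks inside the gene record. Over all 20665 autosomal coding genes, 61.7% held an ND peak, 68.4% an HFD peak and 59.3% a FAD peak, and the 1105 whose record lay at least in part in a window had 59.2%, 68.1% and 57.6%. Long genes collect more peaks, and the distal records had a median length of 14.4 kb against 17.7 kb elsewhere. Per 100 kb of record the distal genes held 5.64, 7.65 and 5.22 peaks in ND, HFD and FAD, and the other genes 4.71, 6.49 and 4.33.

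The imprinted cluster at the distal end of chromosome 7 controls fetal growth through genes expressed from a single parental copy. All 22 listed genes lay in the window, and 9 were marked by ND, 14 by HFD and 12 by FAD, 6 of them in all 3. The shares over all coding genes were 61.7%, 68.4% and 59.3%. At Kcnq1ot1 the peaks spanned the gene's start, from 143294978 to 143296869 in HFD (473) and from 143295000 to 143296617 in ND (308). FAD had 2 peaks there, with scores of 219 and 170.3, and so the stretch was marked in every library. Kcnq1ot1 lies inside Kcnq1, a potassium channel gene, so its peaks count for both. H19, a growth-restraining RNA, had 1 peak inside its record in each library, with scores of 125, 132 and 60.5 in ND, HFD and FAD. A weak ND peak (142581545 to 142582046, score 56.4) began 3398 bp upstream of H19, the side on which the known control region of H19 and Igf2 lies, and HFD and FAD had no peak in the 10 kb upstream. Igf2, the insulin-like growth factor 2 gene, had a peak in ND (127) and FAD (87.7) and none in HFD, where the nearest lay 2424 bp away. Th, the tyrosine hydroxylase gene, had a peak that shared bases with its promoter in HFD (109) and FAD (64.2). Its nearest ND peak lay 47887 bp away. Cdkn1c, a cell cycle inhibitor, had a peak in ND (59.9) and HFD (92.5). Ascl2, Ins2, Phlda2, Cd81, Tssc4, Tspan32 and Nap1l4 had none in any library.

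The Hoxc cluster, homeobox genes of body patterning with the non-coding RNA Hotair among them, lay in the window of chromosome 15. Of its 10 genes, with a median record of 4.49 kb, 1 was marked by ND, 2 by HFD and 4 by FAD. Among all coding genes 61.7%, 68.4% and 59.3% were marked. Hoxc4 was marked in all 3 libraries (140, 111 and 122 in ND, HFD and FAD). Hoxc9 had 3 peaks in FAD (highest 136) and 1 in HFD (74.1), with the nearest ND peak 34303 bp away. Hoxc6 (89.3) and Hotair (89.7) had a peak in FAD only, and Hoxc5, Hoxc8, Hoxc10, Hoxc11, Hoxc12 and Hoxc13 had none. These records held 7 FAD peaks, 5 HFD peaks and 2 ND peaks, against 2363, 3464 and 2555 in all distal coding records. The FAD list is the shortest of the 3, and these few peaks are a description only.

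Genes of developmental regulators, mostly transcription factors, near the distal ends were marked at 5 of 16 in ND, 7 in HFD and 4 in FAD. Their median record was 6.42 kb, and 61.7%, 68.4% and 59.3% of all coding genes were marked. The genes Sox18, Zic2, Isl1, Pdx1, Cdx2, Gsx1, Nanos1, Bhlhe23 and Hes5 had no peak in any library. Prdm16, a regulator of brown and beige fat identity with a record of 321239 bp, held 24 ND peaks, 40 HFD peaks and 28 FAD peaks, with highest scores of 274, 434 and 183. Gata5 and Myt1 had peaks in HFD alone, all with scores below 72. Sp7, a factor of bone formation, was marked in all 3 libraries (194, 118 and 156).

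Metabolic genes of fat were marked at 11 of 16 in ND, 10 in HFD and 11 in FAD, and 10 were marked in all 3. All coding genes had 61.7%, 68.4% and 59.3%, and the median record of this list was 15.3 kb. Hsd11b1, which encodes the enzyme that regenerates active glucocorticoid, had peaks with highest scores of 468, 577 and 509 in ND, HFD and FAD. Pnpla2 had 2, 4 and 2 peaks inside its record, the highest at 271, 225.1 and 262, although its promoter had none. Fasn, the fatty acid synthase gene, had 4, 3 and 4 peaks with highest scores of 127, 161 and 115. The promoters of these 3 genes in the RefSeq table had no peak. Fgf15, a gut hormone gene, was marked in ND (73.4) and FAD (66.8), with the nearest HFD peak 7916 bp away. Dcxr, Pycr1, Fn3k, Rarg and Adcyap1 had no peak in any library.

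The chemokine receptor genes at the tip of chromosome 9, which guide leukocytes into tissue, held few peaks. Ccr9 had 1 in HFD (63.4), and Ccr1, Ccr1l1, Ccr2, Ccr3, Cxcr6 and Xcr1 had none in any library. Housekeeping genes were marked at 9 of 20 in ND, 11 in HFD and 8 in FAD, below the shares over all coding genes, with a median record of 11.9 kb. Actg1, the gamma-actin gene, had 1 peak in each library (206, 151 and 136), and Itgb1, Prdx3, Rplp2, Taldo1, P4hb, Adrm1, Rps21 and Nap1l4 had none.

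Promoters in the windows lay under a peak more often than promoters elsewhere in ND and HFD, while the FAD interval included the share elsewhere. Of 1772 distal promoters on 18 autosomes, 84 lay under a peak in ND (4.74%, 3.85 to 5.83%), 111 in HFD (6.26%, 5.23 to 7.49%) and 61 in FAD (3.44%, 2.69 to 4.40%). Elsewhere the shares were 3.22%, 4.67% and 2.80%, and over all 31396 promoters 3.31%, 4.76% and 2.84%. The ratios of distal to other shares were 1.47, 1.34 and 1.23. Promoters of 1 gene overlap each other, so these intervals are too narrow. Without chromosome 15 the distal shares were 4.24%, 5.81% and 3.18%, against 3.17%, 4.65% and 2.78% elsewhere.

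The share under a peak varied with the CpG number of the promoter. Distal promoters with 6 to 9 CpGs lay under a peak in 11.4% (ND), 16.7% (HFD) and 9.39% (FAD) of cases, and those with 10 to 14 in 15.4%, 14.2% and 9.47%. With 20 CpGs or more the shares were 1.33%, 1.33% and 0.95% of 525 promoters, and with 0 to 2 they were 2.07%, 4.13% and 1.03% of 387. The share was thus highest at middle CpG numbers, though marked promoters occurred in every class. Had distal promoters the rest's share in each CpG class, 3.27%, 4.69% and 2.85% would lie under a peak in ND, HFD and FAD.

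**Figure D4:**
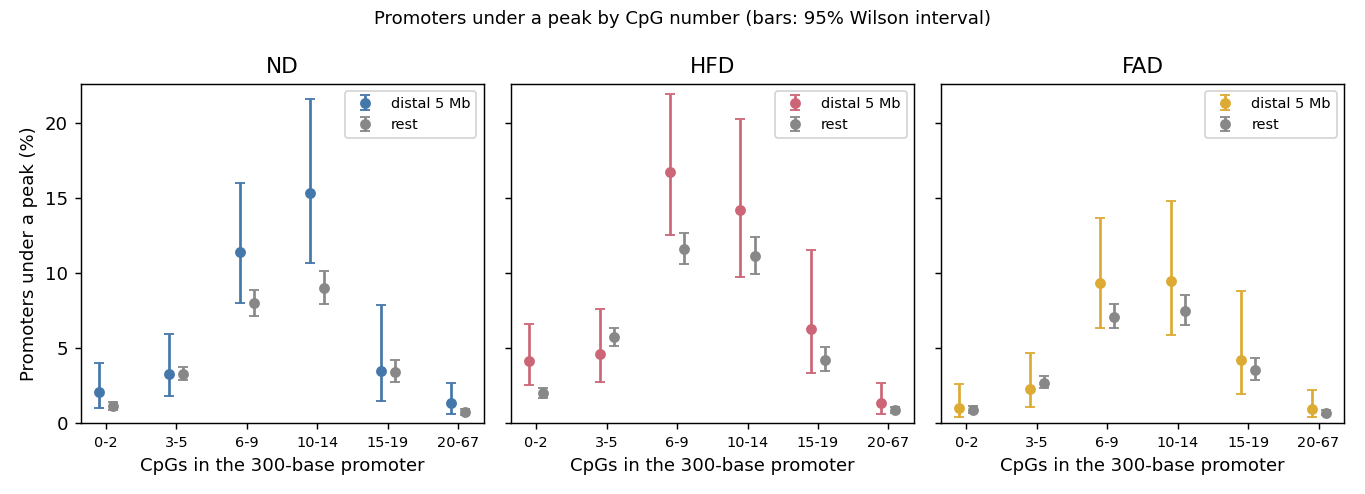
Share of promoters under a peak (vertical axis, percent, with 95% Wilson intervals) by the number of CpGs in the 300 bases (horizontal axis) for ND, HFD and FAD, in the distal windows (coloured) and the rest (grey). In all panels the share is highest at 6 to 14 CpGs, reaching 15.4% in ND and 16.7% in HFD, and low at 20 or more.

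Of the 1772 distal promoters, 46 lay under a peak in all 3 libraries, against 616 of 29624 elsewhere. These 46 belonged to 43 genes, and 37 promoters were marked in HFD only, 16 in ND only and 3 in FAD only. This split was not counted over all promoters, so it is a description only. Of all promoters 4.76% lay under an HFD peak, 3.31% under an ND peak and 2.84% under a FAD peak. Genes of the germline were among the 43, named here after their values were seen. Predicted genes and genes of other kinds, such as Rpl22, Slc7a1 and Pnlip, were among the 43 too. Germline promoters without a peak were not counted, so no share of them is given. Syce1, a partner of Sycp2 in the synaptonemal complex, scored 208, 292 and 137 in ND, HFD and FAD, and Tex19.1, a gene of germ cell genome defence, 116, 178 and 119. Tdrd1, of the piRNA pathway, scored 79.3, 109.6 and 79.8, and Topaz1, a gene of male meiosis, 81.2, 129 and 114. Keratin genes of the type II cluster on chromosome 15, which epithelial cells express, made up another group. Of 16 keratin promoters in that window, ND marked 5, HFD 6 and FAD 4, where 3.31%, 4.76% and 2.84% of all promoters were marked, and the 4 of Krt2, Krt8, Krt75 and Krt82 did in all 3 libraries. Among promoters marked in a single library, Trp73, a gene of the p53 family, had a peak in ND (113), and Ifitm5, a gene of bone cells, in HFD (157).

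The telomere repeat unit was looked for in the same promoters. The letters TTAGGG, on either strand, occurred in 180 of 1772 distal promoters (10.2%) and in 10.6% of promoters elsewhere, and 2 units in a row in 1 distal promoter and 3 others. A single match of 6 letters is no telomere sequence, and the repeat arrays themselves lie outside these windows of 300 bases.

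Of 58 miRNA hairpins in the windows, ND marked 4, HFD 7 and FAD 3 (6.90%, 12.1% and 5.17%). Over all 919 autosomal hairpins 6.86%, 10.1% and 5.33% did. The mature RNAs of the 4 hairpins under an ND peak are shown, as listed there, from RefSeq (GRCm38.p6), with the seed, bases 2 to 8, in capitals, because these hairpins were marked in ND.
mmu-miR-675-5p: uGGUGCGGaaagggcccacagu
mmu-miR-675-3p: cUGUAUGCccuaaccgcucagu
mmu-miR-26a-5p: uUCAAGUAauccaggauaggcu
mmu-miR-26a-2-3p: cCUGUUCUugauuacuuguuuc
mmu-miR-7658-5p: uGUGGGCGuggcggugcugg
mmu-miR-7658-3p: aCCACCUUccucacccacgcu
mmu-miR-7006-3p: uUUCUGACcuggauccccag
Mir675, which is cut from H19, lay in part under the H19 peak of ND (125) and HFD (132), while the FAD peak stopped short of it. Mir26a-2 on chromosome 10 lay under a peak of ND (75.5) and of HFD (89.6), with none in FAD. Mir7658 on chromosome 4 lay under a peak in all 3 libraries, with 341 in ND, 402 in HFD and 68.3 in FAD. Mir7006 on chromosome 2 did as well, with 118 in ND, 369.5 in HFD and 122 in FAD. No 2 of these 7 mature RNAs share a seed.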

How the data were processed

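MeDIP-seq peak lists of 3 libraries, 1 per diet, were used, assigned by the labels. The deposited lists give position and a peak score of the authors, which is at least 50. Its scale is not stated. Positions are in mm10, per the submitters' processing notes. MACS stands in the peak names. Aligner, caller settings, control and depth: not given in the sources used here. Peaks were called per library.

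Peaks on 19 autosomes were merged on 1 bp, and a peak was distal when its merged region was. Promoters and hairpins were marked when a peak shared at least 1 bp with them. Rest length ran from the first peak of a chromosome. Gene records, promoters and miRNAs came from RefSeq tables of GRCm38.p6, the assembly of mm10. The promoter table was matched on 18 autosomes, and 2 of the listed gene symbols were not matched. Named regions were the strongest of each chromosome, the 5 widest and the 3 highest of each pattern of presence, and genes were members of 6 lists. A few results under this rule are left out here. Members, lists and rules were chosen with earlier results of these data known. Intervals are Wilson 95% intervals, and Newcombe's for differences. The density code was tested on simulated data, and merging gave the same 154503 regions as bedtools. Alternatives were windows of 2 and 10 Mb, equal-length lists, the top 50% of peaks by score, each chromosome left out, the next 5 Mb as comparator, rest length from position 0, joining within 500 bp and absence within 5000 bp. Tools were bedtools 2.31.1, matplotlib 3.10.9 and Python 3.11.15 with scipy 1.17.1, pandas 2.3.3 and numpy 2.4.6.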

Additional observations from a re-analysis of the deposited data

How the results depend on the processing

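Of 128 values of 16 results under other settings, 87 stayed within counting error of the value reported and 41 moved. Equal-length lists, joining within 500 bp and counting the rest from position 0 moved none of the ratios and differences from the rest. Equal-length lists did move the shares themselves: distal HFD and not ND went from 32.9 to 19.3%, ND and not HFD from 10.4 to 18.9%, FAD and not HFD from 8.45 to 18.3% and HFD and not FAD from 35.0 to 18.9%. Cutting to equal length brings both directions of a pair close by construction. Below, values are in the order ND, HFD, FAD. The density ratio was 0.886, 0.892 and 0.923 with windows of 2 Mb, 1.42, 1.41 and 1.39 with 10 Mb, and 0.755, 0.763 and 0.775 against the next 5 Mb. It was 1.15, 1.14 and 1.15 at the lowest and 1.24, 1.24 and 1.24 at the highest when 1 chromosome was left out, and 1.15 in ND with the top 50% of peaks. The score ratio was 1.03 in ND and 1.02 in FAD with 2 Mb, 1.01 and 1.02 against the next 5 Mb, and 0.990 in HFD with both 10 Mb (0.9898) and the top 50% (0.9897). The width ratio with 2 Mb was 1.02, 1.0 and 1.003, and in HFD it was 1.03 with 10 Mb and 0.983 against the next 5 Mb.

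Differences in shares, distal minus rest, are in percentage points. With the top 50% they were 2.60 for HFD and not ND, -0.387 for ND and not HFD, -1.02 for FAD and not HFD, 1.65 for HFD and not FAD and -0.450 for ND and not FAD. With 2 Mb they were 0.809 for FAD and not HFD, 1.54 for FAD and not ND and -0.883 for ND and not FAD, which was -0.890 against the next 5 Mb. With absence within 5000 bp they were -0.791 for HFD and not ND, -0.557 for ND and not HFD, -1.42 for HFD and not FAD, -0.451 for FAD and not ND and -0.564 for ND and not FAD. The cause of these moves was not tested.

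No paired analysis was possible because each diet has 1 library. Depth is unknown, so differences between lists in number of peaks cannot be told apart from differences in depth.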
